A study of Mus musculus with 35 samples.

Results

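The 12 cells compared here are lactate-treated peritoneal macrophages from 2 experiments of the study, profiled by single-cell simultaneous metabolome and transcriptome profiling (scMeT-seq) after the same treatment and counted on the same feature list. The 4 cells Lactic13, Lactic14, Lactic16 and Lactic17 belong to the experiment that compared scMeT-seq with whole-cell SMART-seq2, a full-length cDNA method (the technique experiment). The 8 cells Lactic27 to Lactic34 belong to the experiment that compared lactate with control (the lactate experiment). Members were chosen by these names, and the 12 cells are part of 35 in the series. A further 5 cells given lactate alone belong to an experiment with the inhibitor AZD3965, were counted on another feature list and are not compared here. For the first set the titles name scMeT-seq, and for the second only the methods of the study do.

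All 12 cells are labelled as primary macrophages washed from the peritoneal cavity of male C57BL/6 mice aged 6 months. Cells were left to adhere for 24 h, received 10 mM lactate and were harvested after 72 h. A fine capillary drew off a little cytoplasm for mass spectrometry, a wider capillary then took up the cell in lysis buffer, and its cDNA was amplified over 20 PCR cycles. The lactate experiment also holds 8 control cells. The technique experiment also holds 3 lactate-treated and 2 control cells lysed whole, without the cytoplasm being drawn. These serve below as values set beside the 12 cells. The labels name no animal, culture, oxygen level or sequencing run for a cell, and the study names 2 sequencers without saying which cell ran on which. Each set therefore counts as 1 sample: no test between the sets was run, no difference has a replicate check, and set, experiment and depth cannot be told apart.

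Peritoneal macrophages are long-lived phagocytes of the abdominal cavity, known for lysozyme, scavenger receptors, complement and large lysosomal stores. Lactate is both a fuel, which enters the tricarboxylic acid (TCA) cycle after conversion to pyruvate, and a signal that is known to shift macrophages towards arginase expression and angiogenic factors. Lipid-laden macrophages turn on a recurring set of genes for lipid uptake and lysosomal breakdown, led by Trem2, Gpnmb, Spp1 and Lpl.

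The 4 cells of the technique experiment held 519683 to 678618 counts assigned to genes and the 8 cells of the lactate experiment 289002 to 459859, so the ranges did not overlap. Thinned to 289002 counts per cell, 5701 to 8237 genes were detected in the first set and 5010 to 9797 in the second. All 12 cells carried counts for 19 or 20 of the 20 core macrophage markers. Lactic29 of the lactate experiment stood apart: its macrophage markers summed to 44397 CPM (counts scaled to a common total of 1000000 per cell) against 66411 to 84459 in the other 7, and its fibroblast markers to 7664 CPM against 26.8 to 833. Among the control cells of that experiment, CTL30 and CTL32 held 10090 and 47241 CPM of fibroblast markers, beside 38772.5 and 1379 CPM of macrophage markers. Both are included in every control value of the lactate experiment given below. Across 10679 genes, Spearman's rho between 2 cells had a median of 0.574 within the technique experiment (6 pairs), 0.574 within the lactate experiment (28 pairs) and 0.559 between them (32 pairs). These values share genes and depth and are descriptions. On this measure, a pair drawn from both sets was about as alike as a pair from the same set.

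For each gene, the counts of all cells in a set were added up and expressed as CPM, and every ratio below is the log2 ratio of the technique experiment over the lactate experiment. Intervals are exact 95% binomial intervals, which cover counting error only and leave out the spread between cells. PCR copies without molecular identifiers are not independent molecules, so the intervals can be too narrow even for counting error. Of the 10679 genes with at least 10 counts over both sets, 5817 (54.5%) lay within 2-fold. A further 1504 genes (14.1%) were over 2-fold higher in the technique experiment and 3358 (31.4%) over 2-fold lower. Over all these genes the log2 ratio had a median of -0.26, against 0.15 for the 768 genes with at least 1000 counts. A share of 0.506% of genes (54) had every technique cell above every lactate-experiment cell, and 0.393% (42) had every technique cell below. Leaving out a cell can only narrow the ranges, so counts without overlap can fall only where fewer genes are tested. When 1 cell was left out at a time, these counts ran from 61 to 118 and from 45 to 102. Without Lactic13 they were 110 and 76, without Lactic17 118 and 102, without Lactic16 98 were higher and without Lactic31 72 were lower.

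Programs were then set side by side as gene lists. A program was called close when the median log2 ratio of its measured members and the log2 ratio of its summed CPM both lay within 0.5, and apart when the summed CPM of the cells did not overlap and its ratio was past 0.5. Of 45 programs with at least 5 measured genes, 25 were close, 2 were apart and 18 were neither. Without Lactic16, Lactic17 or Lactic31 the number apart was 4, and without Lactic33 it was 5. A cell left out can only narrow the ranges, so these rises add no support. In the main setting and all 20 alternatives that could be applied to both measures, 16 programs were close throughout, the lipid-associated program was past 0.5 upwards throughout, and the hypoxia and mitochondrially encoded lists were past 0.5 downwards throughout. Of the remaining 26, the scavenger receptor list fell in none of these 3 classes in any setting. The nuclear oxidative phosphorylation list was close in 1 setting and past 0.5 upwards in 20. The alternative activation list was close in 20 and past 0.5 downwards in 1. The others were in a class in some settings and not in others.

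**Figure D1:**
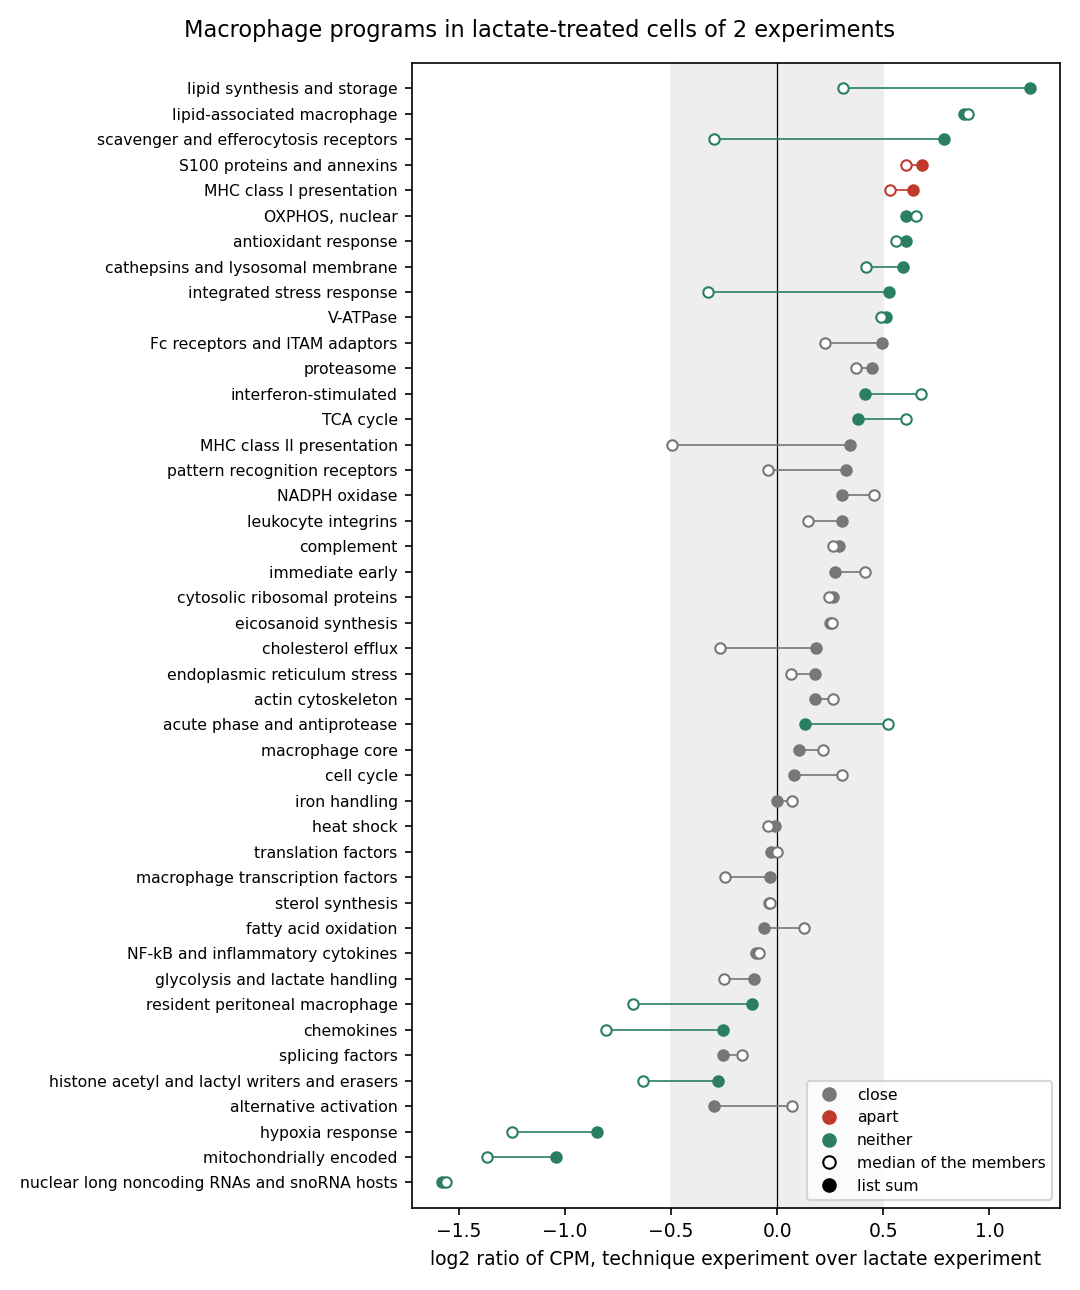
Log2 ratio of CPM, technique experiment over lactate experiment, for the 44 macrophage programs other than the fibroblast list. Filled points are list sums, open points the median of the members, red marks the 2 programs that are apart and green those that are neither, and the grey band marks 0.5 either side of 0, where 25 programs lie with both points.

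Core macrophage genes were at close levels in both sets. The 20 core markers summed to 73514 to 84912 CPM in the technique experiment and to a median of 81473 CPM in the lactate experiment, with a median log2 ratio of 0.22 and a ratio of the sums of 0.10 (0.10 to 0.11). None of the 20 was 2-fold lower and 2 were 2-fold higher, beside 31.4% and 14.1% of all genes. Lyz2, the macrophage lysozyme and the gene with the most counts in both sets, gave 42036, 39680, 44203 and 43214 CPM in the technique cells, and 27501, 46531 and 53267 CPM as lowest, median and highest of the lactate experiment. The lowest of these is Lactic29, and the ranges overlap. Adgre1, the F4/80 antigen, summed to 1725 and 1570 CPM, and Itgam, the integrin CD11b, to 1150 and 1218 CPM. The members at the edges were Tyrobp, the adaptor of Trem2 and other receptors, at 1990 against 840 CPM (log2 ratio 1.24), and Csf1r, the receptor for the growth factor that keeps macrophages alive, at 996 against 1688 CPM (log2 ratio -0.76).

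The program closest to the treatment, glycolysis and lactate handling, was also close. Its 24 genes summed to 11020, 17272, 21507 and 14783 CPM in the technique cells, and to 11555, 17763 and 21989 CPM as lowest, median and highest of the lactate experiment. The cells of both sets thus covered nearly the same range, with a ratio of the sums of -0.11 (-0.13 to -0.09) and a median of -0.25. Pkm, the pyruvate kinase of the last step, was at 3451 and 3401 CPM, and Eno1, the enolase before it, at 3058 and 3166 CPM. Ldha, which interconverts pyruvate and lactate, was at 1431 and 1779 CPM, and Ldhb, the other subunit of that enzyme, at 149 and 30.9 CPM (log2 ratio 2.27, and 1.59 without Lactic14). Pfkfb3, which makes the activator of phosphofructokinase, lay at the low end with 21.7 and 133 CPM (log2 ratio -2.61). In all, 3 genes of the list were 2-fold higher, 4 were 2-fold lower and 17 lay within 2-fold, beside 14.1%, 31.4% and 54.5% of all genes. The 8 control cells of the lactate experiment stood at 12909 CPM and the 3 lactate-treated whole cells at 19335 CPM, values that include a control cell (CTL32) with only 1379 CPM of macrophage markers.

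Iron handling showed the smallest difference between list sums, 67579 and 67553 CPM, although its 2 leading genes vary widely from cell to cell. Fth1, the ferritin heavy chain, ran from 34202 to 50338 CPM in the technique cells and from 28889 to 77837 CPM in the lactate experiment, and Ftl1, the light chain, from 19472 to 23118 and from 9109 to 29764 CPM. Sterol synthesis (list sum ratio -0.04), heat shock (-0.01), translation factors (-0.03), fatty acid oxidation (-0.06) and macrophage transcription factors (-0.03) were also close in all 21 settings. The NF-kB and inflammatory cytokine list (-0.10) was close in 20 of them, and its sum stood at -0.51 without Lactic16. Arg1, the arginase of alternatively activated macrophages, was at 4216, 3323, 7364 and 9080 CPM in the technique cells and at 5749, 7944 and 8672 CPM as lowest, median and highest of the lactate experiment. Its summed CPM were 6159 and 7806, a log2 ratio of -0.34. Saa3, the acute phase serum amyloid made by macrophages, summed to 11225 and 14563 CPM (log2 ratio -0.38).

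Among the 77 genes with at least 1000 CPM in both sets, the 10 with the smallest difference were Eef1a1, Hmox1, Cybb, Pkm, Lgmn, Apoe, Eef2, Eno1, Itgam and Lyz2. A small difference between sums did not always mean like cells. Eef1a1, the elongation factor that brings tRNA to the ribosome, ran from 1568 to 2580 CPM and from 1459 to 3315 CPM. Apoe, a lipid carrier of macrophages, ran from 99.2 to 10682 CPM in the 4 technique cells and from 253 to 6758 CPM in the lactate experiment, and its log2 ratio of 0.04 became -1.82 without Lactic14. Hmox1, which breaks down haem, was at 2249 and 2240 CPM, and its log2 ratio was -0.58 without Lactic17.

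Antigen presentation by MHC class I was 1 of the 2 programs in which the cells did not overlap. Its members summed to 10551, 11559, 12978 and 10501 CPM in the technique cells, and the 8 cells of the lactate experiment lay between 4684 and 9911 CPM with a median of 6934. All technique cells were therefore above all lactate-experiment cells, with a ratio of the sums of 0.64 (0.61 to 0.67) and a median over 14 measured genes of 0.53. H2-D1, the class I heavy chain (mm10 chr17:35262730-35267499), made up most of the list: its 4 values were 7772, 7737, 8628 and 7449 CPM, against 2730, 4529 and 6858 CPM as lowest, median and highest. H2-K1, the other classical heavy chain here, was at 1941 and 1348 CPM with overlapping cells. Pdia3, the disulfide isomerase of the peptide-loading complex, was at 517 and 279 CPM (log2 ratio 0.89), and Tap1, a subunit of the peptide transporter, at 38.5 and 19.1 CPM (log2 ratio 1.01, and -0.32 without Lactic17). Nlrc5, the transcriptional activator of class I genes, went the other way at 12.7 and 45.4 CPM (log2 ratio -1.84). B2m, the light chain of class I, is listed at 0 in all 12 cells. The list sum therefore lacks it, and whether the 0 comes from the counting or from the cells was not tested. In counts, 2 of the 14 measured genes were 2-fold higher and 1 was 2-fold lower, beside 14.1% and 31.4% of all genes, so the number of higher members was at the background.

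The lactate-treated whole cells of the technique experiment stood at 10411 CPM for this list and the control cells of the lactate experiment at 5518 CPM. For H2-D1 these values were 6952 and 3434 CPM. The control values include the fibroblast-rich CTL30 and CTL32, at 2827 and 1243 CPM for the list and at 1214 and 183 CPM for H2-D1. The whole cells varied: for the list they were at 14440, 6980 and 10584 CPM, so 1 of the 3 was at the median of the lactate experiment and below every technique cell.

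S100 proteins and annexins, calcium-binding proteins of the cell cortex and membranes, formed the other program whose cells did not overlap. They summed to 2854, 4899, 3156 and 3488 CPM in the technique cells and to at most 2792 CPM in the lactate experiment (lowest 1637, median 2276). The ratio of the sums was 0.68 (0.64 to 0.73) and the median 0.61, with 2 of 14 measured genes 2-fold higher and 0 of them 2-fold lower, beside 14.1% and 31.4% of all genes, so here too the higher members were at the background. The gap between the sets is narrow, and after thinning to 289002 counts per cell only the MHC class I list remained apart. S100a1 gave 312, 210, 314 and 143 CPM against 0, 41.4 and 105 CPM as lowest, median and highest (log2 ratio 2.37), so its cells did not overlap. Anxa3 gave 416, 670, 607 and 850 CPM against 191, 358 and 415 CPM and did not overlap either, by a margin of about 1 CPM. Anxa5, which binds phosphatidylserine, summed to 886 and 485 CPM, and S100a6 to 109 and 128 CPM (log2 ratio -0.24, and -1.40 without Lactic14). The transcripts of this list are short, with a median length of 1189 bases, and relative to genes of like length its median was 0.36.

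The lipid-associated macrophage program differed more in size but its cells overlapped. It summed to 67843, 73358, 43074 and 56944 CPM in the technique cells, and to 13784, 31329 and 55788 CPM as lowest, median and highest of the lactate experiment. Of 18 measured genes, 7 were 2-fold higher and 0 were 2-fold lower, beside 14.1% and 31.4% of all genes. The median was 0.90 and the ratio of the sums 0.88 (0.87 to 0.89), and both stayed above 0.5 in all 21 settings, from 0.76 to 1.05 for the median and from 0.68 to 1.06 for the sums. Lactic16 and Lactic33 were the cells that overlapped, so the gap seen without either follows from that choice.

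Gpnmb, a transmembrane glycoprotein of lysosome-rich macrophages (mm10 chr6:49036546-49070929), was at 19573, 5677, 3045 and 5387 CPM in the technique cells against 86.8, 758 and 7342 CPM as lowest, median and highest of the lactate experiment. Its log2 ratio of 2.22 (2.18 to 2.27) was 1.35 without Lactic13 and 3.20 without Lactic33, so the size of this difference rests on a few cells. Lpl, the lipoprotein lipase that frees fatty acids from triglyceride (mm10 chr8:68880491-68907448), was at 2831, 4495, 2192 and 7816 CPM against 19.6, 385 and 4738 CPM. In 7 of the 8 lactate-experiment cells it lay below every technique cell, and without the remaining cell, Lactic34, the log2 ratio of 1.99 was 2.78.

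Capg, an actin-capping protein, and Plin2, the coat of lipid droplets, were the members whose cells did not overlap. Capg gave 1389, 1849, 2412 and 1789 CPM against at most 1186 CPM (log2 ratio 1.01), and Plin2 1704, 3027, 1583 and 1465 CPM against at most 1329 CPM (log2 ratio 0.95). Trem2, the lipid-sensing receptor, summed to 1135 and 557 CPM with overlapping cells. Spp1, the secreted osteopontin, gave 158, 699, 0 and 2845 CPM in the technique cells, so Lactic17 held most of it, and its sums of 981 and 246 CPM had a log2 ratio of only 0.10 without that cell. At the other end stood Apoe, described above.

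Genes of lipid synthesis and storage are not a separate line of evidence, because Lpl and Plin2, described above, are also their members with the most counts. This list summed to 9959 and 4358 CPM (log2 ratio 1.19, 1.16 to 1.22), with 7 of 23 measured genes 2-fold higher and 2 of them 2-fold lower, beside 14.1% and 31.4% of all genes, and a median of 0.31. Cd36, the fatty acid and oxidised lipid receptor, was at 3811, 579, 313 and 2343 CPM against 215, 631 and 1766 CPM, and its log2 ratio of 1.28 fell to 0.60 without Lactic13. Mmp12, the macrophage elastase (log2 ratio 2.42, and 3.07 without Lactic34), was at 10585, 5830, 122 and 13364 CPM against 83.0, 931 and 5464 CPM. Lactic16 was thus as low as the lowest cells of the lactate experiment, while its 3 companions exceeded all 8. Lactate-treated whole cells were at 5768 CPM for Mmp12, 3416 CPM for Lpl and 3284 CPM for Gpnmb, and control cells of the lactate experiment at 2169, 877 and 5809 CPM. For Gpnmb the untreated cells of the lactate experiment were therefore, in sum, above their treated companions.

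Lysosomal genes differed in the same direction by a smaller amount. The 2 lists share genes: the cathepsins Ctsd and Ctsb are also the lipid-associated members with the most counts. Cathepsins and lysosomal membrane genes had a median of 0.42 and a ratio of the sums of 0.59, and 5 of 30 were 2-fold higher, near the 14.1% of all genes, and 0 were 2-fold lower, against 31.4%. Ctsd, the aspartic protease cathepsin D, summed to 16374 and 11187 CPM with overlapping cells. Psap, the precursor of the saposins that help break down sphingolipids, was at 7580, 6396, 5163 and 5681 CPM against 1093, 2985 and 4452 CPM (log2 ratio 1.15), without overlap. Ctsz and Lamp1 did not overlap either, with log2 ratios of 1.01 and 0.69. The proton pump that acidifies lysosomes, the V-ATPase, had a median of 0.49 and a ratio of the sums of 0.51.

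**Figure D2:**
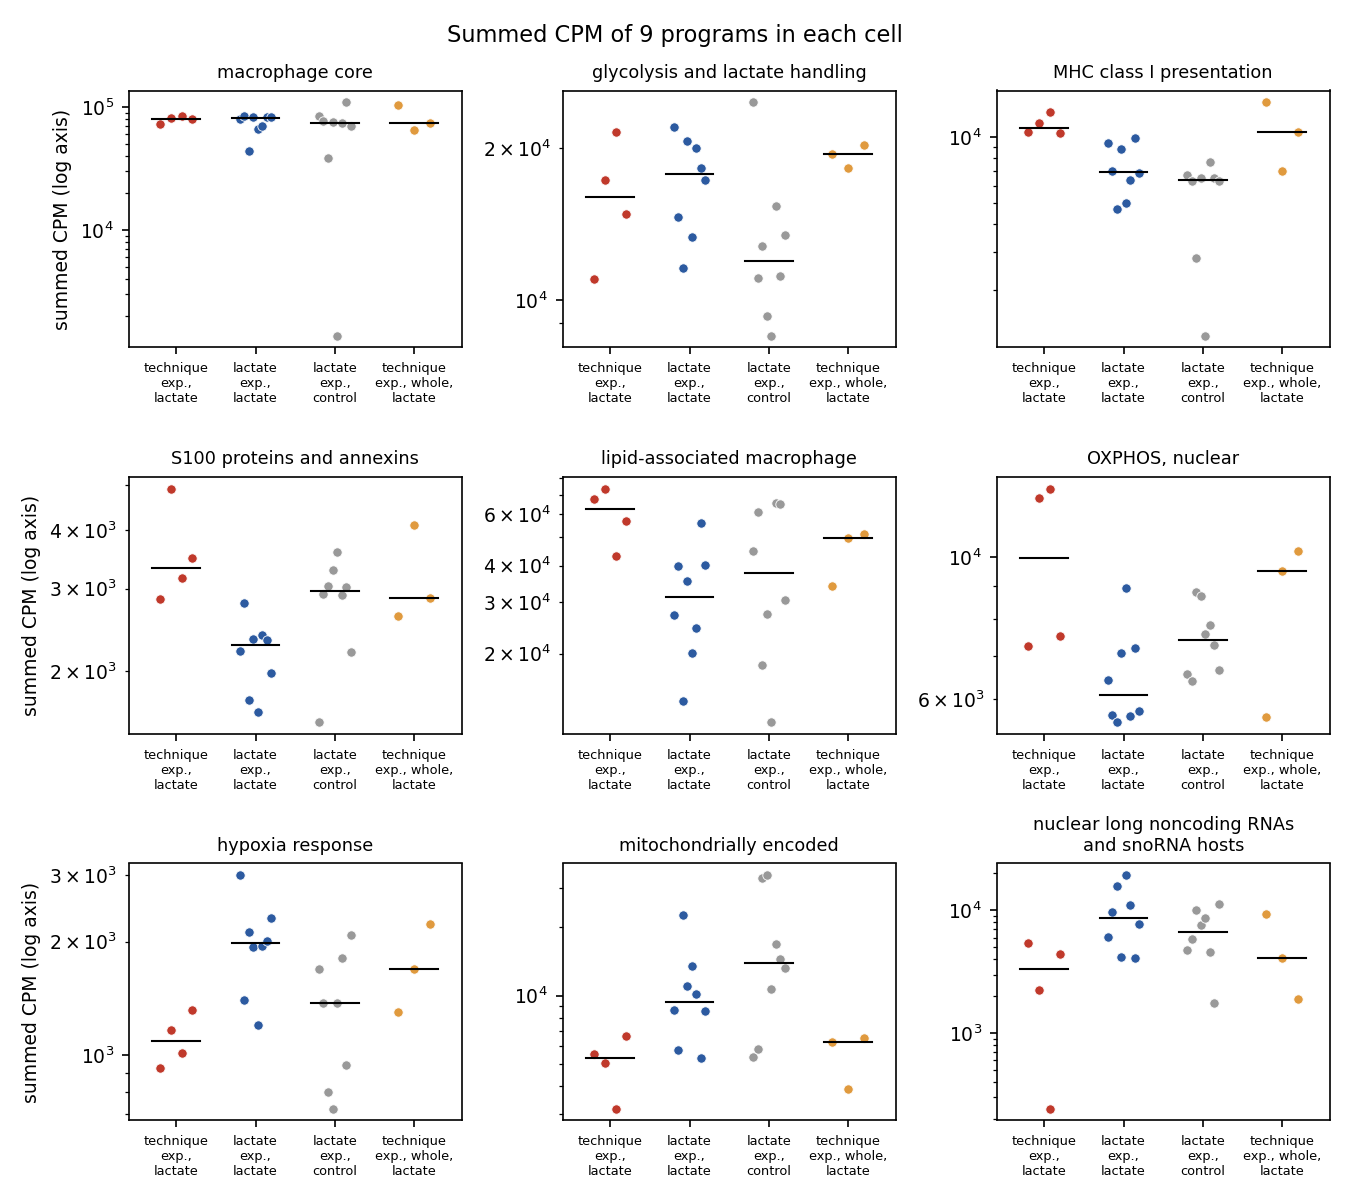
Summed CPM (log axis) of 9 programs in single cells of 4 groups. Each point is a cell and each bar the median of a group. The technique cells lie above all lactate-experiment cells of the same treatment for MHC class I presentation and for S100 proteins and annexins, and overlap them elsewhere.

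Genes of respiration split by the genome that encodes them. The 69 measured nuclear genes of oxidative phosphorylation summed to 7270, 12386, 12790 and 7517 CPM in the technique cells, against 5519, 6094 and 8955 CPM as lowest, median and highest of the lactate experiment. Of them 13 were 2-fold higher and 0 were 2-fold lower, beside 14.1% and 31.4% of all genes, with a median of 0.65 and a ratio of the sums of 0.61 (0.58 to 0.63). The transcripts of this list are short, with a median length of 1005 bases, and relative to genes of like length its median was 0.53. In the shortest decile of transcript length, 22.8% of all genes were 2-fold higher. The highest lactate-experiment cell was Lactic31, the only one within the technique range, so the gap seen without it follows from that choice. Atp5b, the catalytic subunit of ATP synthase, summed to 760 and 496 CPM. Atp5j, a coupling factor of the same enzyme, gave 137, 127, 189 and 118 CPM against at most 89.6 CPM, and Cycs, cytochrome c, 149, 175, 184 and 118 CPM against at most 115 CPM, both without overlap. Ndufa6 of complex I had the highest ratio (1.59) and Ndufa10 the lowest (-0.90, and -2.10 without Lactic16) among those with at least 50 CPM in the higher set.

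The 13 genes of the mitochondrial genome went the other way. They summed to 5540, 5053, 3163 and 6640 CPM in the technique cells and to 5292, 9396 and 22606 CPM as lowest, median and highest of the lactate experiment. In all, 9 were 2-fold lower and 0 were 2-fold higher, beside 31.4% and 14.1% of all genes, with a median of -1.37 and a ratio of the sums of -1.04 (-1.07 to -1.01). The list sum stayed between -1.21 and -0.66 in 21 settings. mt-Nd5, a core subunit of complex I, was at 249, 150, 124 and 301 CPM against 377, 636 and 1616 CPM, without overlap (log2 ratio -1.78). mt-Co1, the catalytic subunit of cytochrome oxidase, gave 2890, 3250, 1891 and 3864 CPM against 3258, 5311 and 12645 CPM, so 3 of the 4 technique cells lay below all 8 others and Lactic17 among them (log2 ratio -1.02). mt-Co2 (log2 ratio -0.45) and mt-Atp8 (0.06) differed least. Lactate-treated whole cells stood at 5508 CPM for the list and control cells of the lactate experiment at 17021 CPM, and control whole cells at 7028 CPM. In sum, the groups of the technique experiment thus lay lower than both groups of the lactate experiment, but single cells overlapped. Lactic28, Lactic33, CTL27 and CTL28, at 5753, 5292, 5338 and 5808 CPM, lay below both control whole cells, at 6837 and 7317 CPM. The highest control cells were CTL30 and CTL31, at 33127 and 34019 CPM, and the highest treated cell was Lactic29. The TCA cycle, encoded in the nucleus, had a median of 0.61 and a ratio of the sums of 0.38. Mdh1, the cytosolic malate dehydrogenase, was at 327 and 129 CPM, and Acly, which splits citrate to acetyl-CoA, at 38.5 and 115 CPM (log2 ratio -1.58).

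Hypoxia-responsive genes were lower in the technique experiment. The list summed to 929, 1168, 1012 and 1322 CPM in the technique cells and to 1201, 1981 and 3000 CPM as lowest, median and highest of the lactate experiment. Of 21 measured genes 12 were 2-fold lower and 1 was 2-fold higher, beside 31.4% and 14.1% of all genes. The median was -1.25 and the ratio of the sums -0.85 (-0.92 to -0.78), and both lay below -0.5 in all 21 settings. Only Lactic31, the shallowest cell, lay within the range of the technique cells. The gap seen without it or without Lactic17 follows from leaving out an overlapping cell. Relative to genes of like transcript length the median was -0.89.

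Promoters are shown because most members with a promoter in the table carry the core of the hypoxia response element, ACGTG, known as the site bound by hypoxia-inducible factors. The motif was searched on both strands in the 250 bases before each start in RefSeq (GRCm38.p6). A promoter was found for 16 of the 21 measured genes and 12 of the 16 (75%) held the motif, beside 25.8% of the 8465 genes tested here that have a promoter in the table and 18.5% of all 27025. The list was made of genes known for the hypoxia response, so this share reflects that choice and is not a result about these cells. The median log2 ratio was -1.25 for the 12 genes with the motif and -1.22 for the 4 without, so both medians were nearly the same. In the 4 promoters that follow, capitals mark the motif or its reverse complement, which overlap in a palindrome for Bnip3.
Bnip3 (chr7:138909507-138909756, minus strand): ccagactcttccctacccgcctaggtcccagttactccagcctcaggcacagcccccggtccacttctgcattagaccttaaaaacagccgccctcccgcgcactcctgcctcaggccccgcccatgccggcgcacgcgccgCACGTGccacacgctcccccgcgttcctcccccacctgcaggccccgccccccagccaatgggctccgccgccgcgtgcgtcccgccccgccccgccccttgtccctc
P4ha1 (chr10:59323046-59323295, plus strand): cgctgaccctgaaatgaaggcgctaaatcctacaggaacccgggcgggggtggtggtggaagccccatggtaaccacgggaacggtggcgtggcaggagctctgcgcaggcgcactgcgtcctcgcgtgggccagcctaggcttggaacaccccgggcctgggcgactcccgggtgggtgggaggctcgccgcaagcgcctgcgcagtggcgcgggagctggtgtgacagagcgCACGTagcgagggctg
Ankrd37 (chr8:45999851-46000100, minus strand): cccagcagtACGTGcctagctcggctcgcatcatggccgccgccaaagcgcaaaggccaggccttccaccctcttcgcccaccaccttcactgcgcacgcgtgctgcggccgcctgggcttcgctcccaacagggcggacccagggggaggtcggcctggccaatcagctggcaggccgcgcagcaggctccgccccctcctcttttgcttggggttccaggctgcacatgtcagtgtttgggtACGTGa
Egln1 (chr8:124949255-124949504, minus strand): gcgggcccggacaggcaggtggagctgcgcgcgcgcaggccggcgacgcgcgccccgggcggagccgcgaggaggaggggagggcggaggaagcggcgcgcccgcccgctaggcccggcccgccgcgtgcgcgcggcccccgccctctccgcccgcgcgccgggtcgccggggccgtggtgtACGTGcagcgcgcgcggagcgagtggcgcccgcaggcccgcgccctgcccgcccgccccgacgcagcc

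Vegfa, the vascular growth factor and 1 of the 10 genes with the lowest ratios, was at 0, 46.2, 0 and 0 CPM in the technique cells against 26.8, 98.7 and 394 CPM as lowest, median and highest of the lactate experiment. Its log2 ratio was -3.85. Lactic14 was the only technique cell with counts, and without it the technique sum is 0, so no ratio is given. Ero1l, the oxidase that drives disulfide formation in the endoplasmic reticulum, was at 83.2, 30.8, 84.4 and 38.3 CPM against 34.6, 289 and 552 CPM (log2 ratio -2.37), and Lactic31 was again the only cell of the lactate experiment within the range of the technique cells. P4ha1, a collagen prolyl hydroxylase whose promoter is printed above, was at 50.2, 84.7, 146 and 178 CPM against 170, 251 and 401 CPM (log2 ratio -1.16). Pdk1, the kinase that holds pyruvate back from the TCA cycle, summed to 50.8 and 140 CPM. The oxygen-sensing hydroxylases Egln1 and Egln3 had log2 ratios of -1.86 and -1.26 (-3.00 without Lactic14 for Egln1), and Bnip3, a receptor for mitophagy, -2.05 at low levels of 7.38 and 30.6 CPM.

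The 5 members with the highest ratios were Bhlhe40, a circadian repressor (log2 ratio 1.01, from 0.45 without Lactic16 to 1.69 without Lactic33), Epas1, the hypoxia-inducible factor HIF-2 alpha (0.89, and 1.65 without Lactic31), Hilpda, which guards lipid droplets from lipolysis (0.27), Bnip3l, a mitophagy receptor related to Bnip3 (-0.24), and Slc2a1, the glucose transporter GLUT1 (-0.24). Hif1a is listed at 0 in all 12 cells. The list sum therefore lacks it, and whether the 0 comes from the counting or from the cells was not tested. Whole lactate-treated cells stood at 1778 CPM for the list, control whole cells at 1697 CPM and control cells of the lactate experiment at 1341 CPM. The technique set, at 1110 CPM, was in sum the lowest of these groups, below the whole cells with which it shares a matrix. Single cells overlapped: CTL30 and CTL31, at 801 and 722 CPM, lay below every technique cell. CTL34 and the whole cell Lactic5, at 943 and 1302 CPM, lay within the technique range.

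Nuclear long noncoding RNAs and hosts of small nucleolar RNAs were lower in sum in the technique experiment, with a ratio of the sums of -1.58 (-1.62 to -1.54), set mainly by Malat1. Of 12 measured members, 7 were 2-fold lower and 1, Snhg6, was 2-fold higher (log2 ratio 1.21), beside 31.4% and 14.1% of all genes. Malat1, a nuclear-retained RNA, was at 4772, 1995, 146 and 3883 CPM against 3358, 7444 and 16775 CPM as lowest, median and highest of the lactate experiment. Neat1, the scaffold of paraspeckles, was at 574, 160, 1.65 and 502 CPM against 160, 1054 and 2381 CPM. Lactic16 had almost none of either. The median of the list, -1.56, was -0.93 without Lactic31, the cell with the highest Malat1, and -0.16 when each set was given by the median of its cells. The third gene by counts in both sets, Gm42418, which lies over the 45S ribosomal RNA locus (mm10 chr17:39846958-39848788), was at 22586, 16079, 20205 and 26825 CPM against 36087, 42568 and 59958 CPM, without overlap. The sums were 21789 and 43576 CPM. It stood at 28506 and 19291 CPM in lactate-treated and control whole cells and at 42186 CPM in control cells of the lactate experiment.

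Inflammatory signals differed more by member than in their list sums. Chemokines had a median of -0.80 over 12 measured genes and a ratio of the sums of -0.26. Of these genes, 6 were 2-fold lower and 1 was 2-fold higher, beside 31.4% and 14.1% of all genes. Over the 21 settings the median ran from -1.17 to -0.06 and the sum from -0.50 to 0.23, so the sign of the sum was not constant. Cxcl13, which draws B cells to the peritoneal cavity, was at 0, 0, 210 and 30.9 CPM against 27.9, 636 and 2107 CPM (log2 ratio -3.97, and -6.37 without Lactic16). Cxcl2, which draws neutrophils, summed to 45.5 and 255 CPM, while Pf4, the chemokine with the most counts, was at 3309 and 2983 CPM. In the NF-kB and inflammatory cytokine list, Sod2, the mitochondrial superoxide dismutase, gave 1261 and 1355 CPM, and Il1b, the cytokine interleukin 1 beta, 132, 0, 529 and 32.4 CPM against 0, 187 and 882 CPM (log2 ratio -0.73, and -2.33 without Lactic16). Interferon-stimulated genes had a median of 0.68, which was 0.33 without Lactic14, and 11 of 35 were 2-fold higher and 4 were 2-fold lower, beside 14.1% and 31.4% of all genes. Ifitm2, a restriction factor of endosomal membranes, was at 792 and 533 CPM.

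Resident peritoneal genes and scavenger receptors gave mixed values. Marco, the scavenger receptor with the most counts, was at 1186, 2188, 13428 and 6581 CPM against 583, 1961 and 6993 CPM, and its log2 ratio of 1.19 was 0.41 without Lactic16. Thbs1, the matrix glycoprotein thrombospondin 1, summed to 2995 and 4897 CPM, and Fn1, fibronectin, to 2081 and 3737 CPM. The median of the 16 measured resident genes was -0.68 and the ratio of their sums -0.12. The median was -0.23 without Lactic30 and as near to 0 as -0.04 in other settings, and the list was close in 12 of the 21. Antioxidant genes had a median of 0.56 and a ratio of the sums of 0.61, led by Prdx1, the peroxiredoxin with the most counts, at 12526, 7151, 6114 and 12813 CPM against 1335, 4212 and 9322 CPM. Gclm, a subunit of the enzyme that starts glutathione synthesis, was at 110 and 36.2 CPM.

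**Figure D3:**
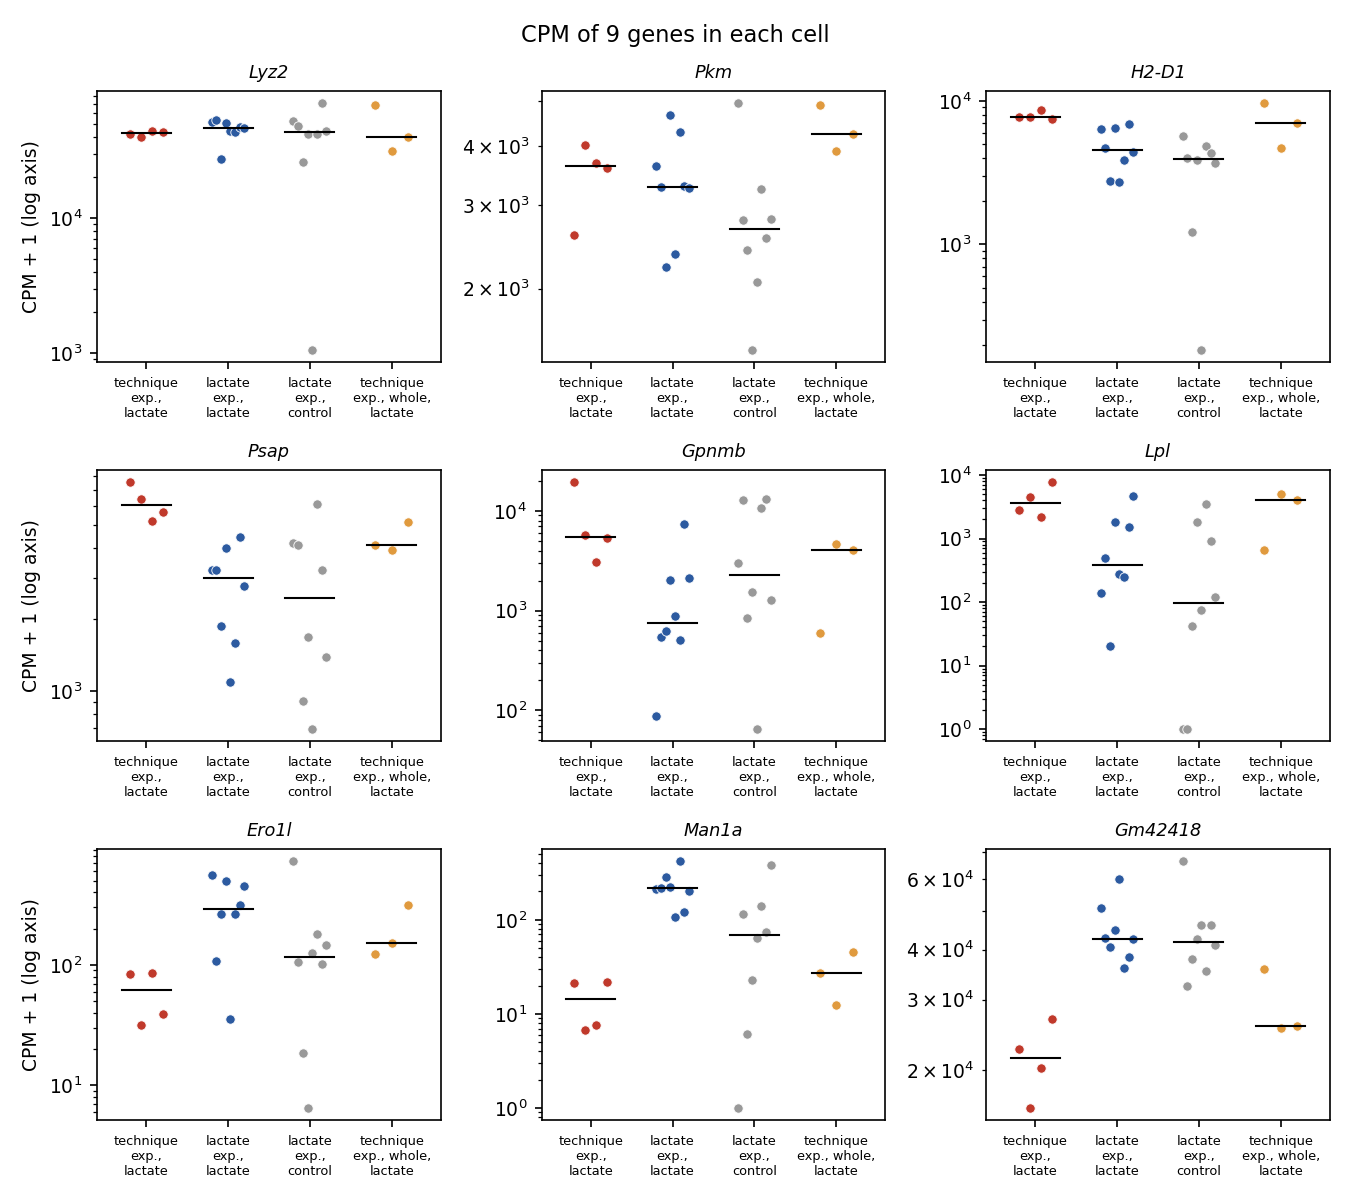
CPM plus 1 (log axis) of 9 genes in single cells of 4 groups, with a bar at each group's median. The technique cells lie within the range of the lactate-experiment cells for Lyz2 and Pkm, while H2-D1 and Psap lie higher and Man1a and Gm42418 lower in all 4 technique cells, and Gpnmb, Lpl and Ero1l overlap.

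The 10 genes with the highest ratios among well-counted genes were Ccdc86, Ckb, H2-M2, Layn, Sema4d, Mmp12, S100a1, Plau, Arhgap9 and Lpl. Ccdc86, a nucleolar protein, gave 69.0, 156, 74.4 and 131 CPM against 0, 4.89 and 44.2 CPM (log2 ratio 3.09, and 3.87 without Lactic33). H2-M2, a nonclassical class I gene, gave 565, 597, 1104 and 116 CPM against 0, 0 and 531 CPM, and 1 lactate-experiment cell, Lactic33, held most of the second set's counts (log2 ratio 2.81, and 6.04 without it). Among the lowest were Cd74, Man1a, Cxcl13, Vegfa, Stt3b, Dcn, Ypel3, Asxl2 and Tmtc2. Man1a, the mannosidase that trims glycans in the Golgi (mm10 chr10:53904785-54076609), was at 20.4, 5.77, 6.62 and 20.6 CPM against 107, 215 and 422 CPM, with a wide gap and a log2 ratio of -4.06 (-4.60 to -3.56). Cd74, the invariant chain of MHC class II, was at 4.10 and 132 CPM in sum, and 2 of the 8 lactate-experiment cells had no count.

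Of the 54 genes with all technique cells higher, those with the most counts were H2-D1, Psap, Ctsz, Itgb2, Cyba and Plin2. Itgb2 is the beta chain of the leukocyte integrins and Cyba a membrane subunit of the NADPH oxidase, and they had log2 ratios of 0.71 and 1.14. Of the 42 with all technique cells lower, those with the most counts were Gm42418, mt-Nd5, Jarid2, Tank, Tmtc2 and Man1a. Jarid2, a cofactor of the Polycomb complex, was at 169, 50, 82.7 and 131 CPM against 305, 445 and 1010 CPM. Tank, an adaptor of NF-kB and interferon signalling, summed to 48.4 and 283 CPM (log2 ratio -2.55, and -3.24 without Lactic13). The cells that did not choose these genes were then set beside them on the log2(CPM + 1) scale. For the 54 genes, lactate-treated whole cells were nearer to the technique set in 38 and control cells of the lactate experiment nearer to the lactate experiment in 36. For the 42 genes these counts were 23 and 34. Control whole cells were nearer to the technique set for 26 of 54 and 19 of 42 genes. The same counts were not made over all genes tested, so these have no background and are descriptions only. The control cells of the lactate experiment include the fibroblast-rich CTL30 and CTL32.

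Transcript length moved with the ratio. Over 10670 genes with a length in GENCODE M21, the median log2 ratio fell from 0.32 in the shortest decile (84 to 1374 bases) to -0.78 in the longest (from 6963 bases). The share of genes 2-fold lower in the technique experiment was 21.0% in the first and 42.7% in the last decile, and the share 2-fold higher was 22.8% and 6.37%. Across genes, which are not independent replicates, Spearman's rho was -0.23, and -0.34 for the 6414 genes with at least 100 counts. The 54 genes higher in all technique cells had a median length of 2111 bases and the 42 lower ones 4399 bases, beside 3446 bases for all. The part of length in the differences between programs was not tested beyond centring each ratio on its length decile. With that centring the lipid-associated list stood at a median of 1.12, MHC class I at 0.62, the hypoxia list at -0.89 and the mitochondrially encoded list at -1.66, while the resident peritoneal list changed sign from -0.68 to 0.06.

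**Figure D4:**
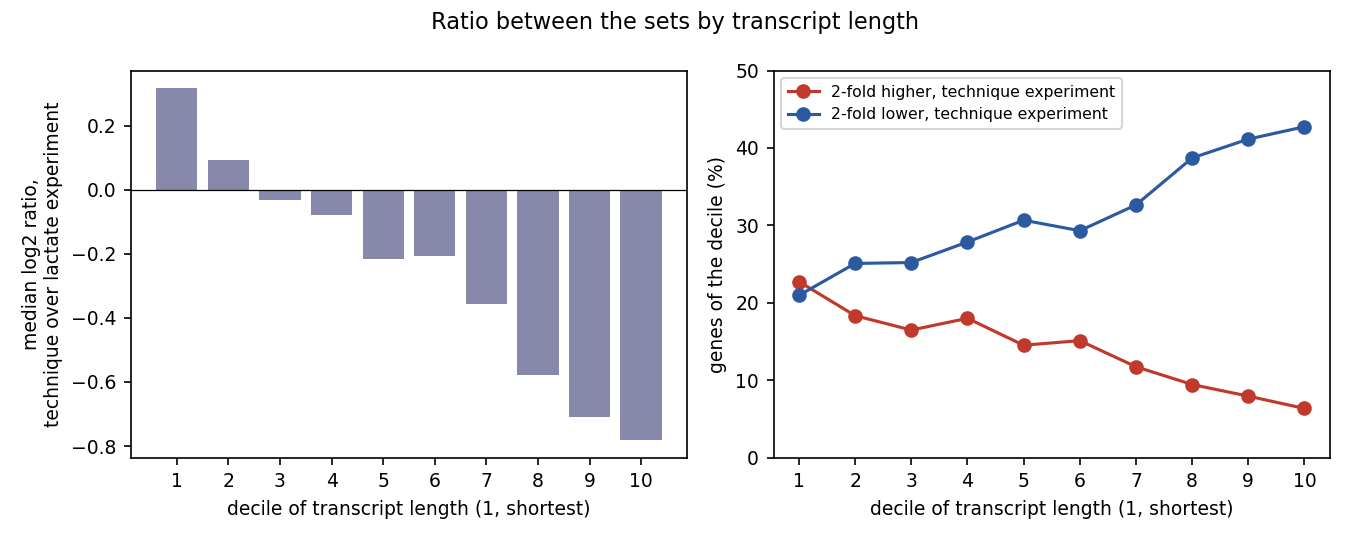
Median log2 ratio of the technique over the lactate experiment (left) and share of genes 2-fold higher or lower (right) by decile of transcript length. The median runs from 0.32 in the shortest to -0.78 in the longest decile.

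Markers of other cell types varied by list. Fibroblast genes summed to 23.1 to 346 CPM in the technique cells, and outside Lactic29 to at most 833 CPM in the lactate experiment. Col1a1, the collagen chain that defines fibroblasts, was at 0 in 11 of 12 cells and at 3979 CPM in Lactic29. The fibroblast list, 10 of whose 11 measured genes were 2-fold lower in the technique experiment, had a ratio of the sums of -3.22, which was -1.26 without Lactic29 and -4.14 without Lactic16. Without Lactic29, 33 programs were close in place of 25 and the same 2 were apart. Markers of neutrophils summed to 957 to 1703 and to 492 to 1564 CPM, mostly Mmp8, those of erythrocytes and platelets to 1518 to 4709 and to 1353 to 8017 CPM, nearly all of it Pf4, which macrophages also express, those of dendritic cells to at most 349 CPM, and those of B cells, T and NK cells, mesothelium, mast cells and endothelium to at most 97.7 CPM in any of the 12.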

How the data were processed

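Single peritoneal macrophages were profiled by a SMART-seq2 type protocol after cytoplasm was drawn for mass spectrometry, or whole. Per the labels and methods, the authors trimmed reads with fastp 0.20.0, aligned them to mm10 with HISAT2 2.1.0 and counted genes with StringTie; the annotation release is not given in the sources used here. The deposited values used here are the authors' raw counts per gene and cell, 32285 genes, in 2 matrices with the same features. Intervals and the floor of 3 counts cover counting error only. No unique molecular identifiers were used, so they can understate even that error.

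Cells were grouped by their names in the labels. Because no animal or culture is named, each set of cells is 1 sample and no test between the sets was made. Counts were summed over the 4 and the 8 cells, genes with at least 10 counts over both sets were kept, and each log2 ratio of CPM carries an exact 95% binomial interval, conditional on the summed counts. A sum of 0 was set to the floor of 3 counts. "Called" means past 2-fold. Members and gene lists were chosen with earlier results of these data known. Named genes were, for each list, the 2 members with the largest CPM and those at either end of the ratios from 50 CPM, then 10 genes at each end of all ratios from 100 CPM, counts in 75% of cells and no cell above 50% of the sum, the 10 closest genes above 1000 CPM, and the 5 with most counts. Ero1l, P4ha1, Pdk1, Egln1, Egln3, Bnip3, Ankrd37, Hilpda, Epas1, Bnip3l, Slc2a1, Psap, Ctsz, Lamp1, Trem2, Spp1, Capg, Plin2, Cyba, Itgb2, Jarid2, Tank, mt-Nd5, Atp5j, Cycs, Ldha, Tap1, Nlrc5, Anxa5, Il1b, Adgre1, Csf1r, Col1a1, Mmp8 and others outside this rule were named after their values were seen, as were the 4 printed promoters. A gene that the rule names is not reported here. Transcript lengths and gene positions came from GENCODE M21 (mm10) and promoters from RefSeq (GRCm38.p6).

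Alternatives were the mean and median over cells, TMM scaling (edgeR 4.0.16, used for scaling factors only), totals without the 20 most abundant genes, count minimums of 100 and 1, thinning to 289002 counts, leaving out each cell, and leaving out the cells rich in other markers. Centring on length deciles was added after the data were seen. The scripts were tested on simulated counts and used Python 3.11.15, numpy 2.4.6, pandas 2.3.3, scipy 1.17.1, matplotlib 3.10.9 and R 4.3.3.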

Additional observations from a re-analysis of the deposited data

Results flagged for a closer look

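Within the 8 cells of the lactate experiment, 3 list sums had a single cell far from the other 7, among 94 groups of cells examined; chance gives about 1 in 20. Lactic29 had 44397 CPM of core macrophage markers, against 66411 to 84459 CPM in the others, and 7664 CPM of fibroblast markers, against 26.8 to 833 CPM. Lactic31, the shallowest cell, had 38394 CPM of cytosolic ribosomal protein genes, against 12838 to 20678 CPM. The results without these 2 cells are given with the processing.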

How the results depend on the processing

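The direction of the lipid-associated, hypoxia and mitochondrially encoded lists held in every setting that could be applied to them. The MHC class I gap also held, but only thinning and totals without the 20 most abundant genes could have closed it. The other settings leave the values of each cell unchanged or only remove cells, which cannot make separate ranges overlap. Requiring 100 counts gave 647 genes 2-fold higher and 1321 lower, and requiring 1 count gave 2360 higher; fewer or more genes were tested. Thinning left 1 program apart. Without Lactic29 and Lactic31, 4 programs were apart. Of 10140 genes tested there, 82 in each direction had cells that did not overlap. Leaving out 1 cell at a time gave 1404 to 1676 genes higher, 2807 to 3748 lower, 22 to 33 programs close, 2 to 5 apart, and 61 to 118 and 45 to 102 genes without overlap. TMM moved every ratio by 0.15, to a median of -0.11, with 1804 genes 2-fold higher and 3032 lower. Among lists past 0.5 and genes of the naming rule past 2-fold, signs reversed for the resident peritoneal median under length centring (0.062), the acute phase median (-0.31 to 0.73 over cells left out), the integrated stress response sum (-0.039 to 0.72), and for Vsig4 (-0.39 to 2.77), Ctsk (-0.20 to 3.01), Dhcr7 (-0.15 to 1.81) and Vwf (-1.83 to 3.15); apart from the first, each sign rests on 1 technique cell (Lactic16, Lactic16, Lactic17, then Lactic13 for the last 3), and the cause was not tested. Smaller list medians also changed sign (immediate early 0.41 to -0.38 and cell cycle 0.30 to -1.12 without Lactic14, alternative activation 0.07 to -0.63 without Lactic17), as did other list members past 2-fold: Ccl5, Fasn and Nqo1 without Lactic13, Pfkm and S100a4 without Lactic14, and Mrc1 and Tap1 without Lactic17. No paired analysis was possible because the groups compared share no cell numbers. The 4 and 8 cells limit every range, and low genes are limited by totals from 289002 counts.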
